A study of Mus musculus with 12 samples.

Results

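The 39 genes described here encode proteins that detect DNA damage, signal it and repair it. They were chosen by name, as members of 8 repair and signalling pathways, and all 39 were found among the 55401 genes of a count table from bulk RNA sequencing of mouse bone marrow derived macrophages. These macrophages were grown from marrow for 7 days with M-CSF, the growth factor that drives marrow precursors to become macrophages. Marrow came from old mice (12 months, 6 libraries) or young mice (8 weeks, 6 libraries), all of a C57BL6 background, with no treatment or altered gene named in the labels of the bulk libraries. The labels call the libraries of an age biological replicates and do not say whether each came from 1 animal, so p-values measure only the spread between these libraries. Single-cell libraries of liver macrophages from the same study were not used here.

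Assigned counts per library ran from 19345587 to 22356812 in old and from 22150081 to 25169045 in young libraries, and all 39 genes passed the filter on low counts that kept 12620 genes. The 8 macrophage markers examined, among them Adgre1, Csf1r and Lyz2, summed to 32620 to 43800 CPM (counts scaled to a common library total) in old and 27180 to 45000 CPM in young libraries. Monocyte and progenitor markers summed to 30.2 to 76.9 CPM in old and 38.9 to 73.8 CPM in young libraries, and neutrophil markers to 25.9 to 68.6 CPM in old and 23.9 to 43.8 CPM in young libraries. Markers of B cells (1.64 to 3.29 CPM in old, 2.34 to 3.93 CPM in young) and stromal cells (0.632 to 2.39 CPM in old, 0.485 to 2.43 CPM in young) were low. Old replicate 6 stood apart in markers of T and NK cells, which summed to 20.6 CPM there, with Cd3g at 5.08 CPM, and to 0.0930 to 0.271 CPM in the other old and 0 to 0.0884 CPM in young libraries. It also had the highest monocyte and progenitor sum (76.9 CPM), with the monocyte marker Ly6c2 at 22.5 CPM, which was at 0.744 to 1.07 CPM in the other old libraries and averaged 0.890 ± 0.310 CPM in young libraries (SD, n = 6). Mzb1, Gzma and Col3a1 had no count in any library.

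Broken or stalled DNA is sensed by the MRN complex and by the kinases ATM and ATR, which pass the signal to the checkpoint kinases CHK1 and CHK2. Homologous recombination and the Fanconi anaemia pathway copy intact sister DNA or undo crosslinks and act mostly in cells that are replicating, while end joining, base excision repair and nucleotide excision repair can act in cells that are not dividing. Mature macrophages divide little, but cultures of marrow hold precursors that proliferate under M-CSF, and macrophages meet oxidants of their own making, whose base lesions are a substrate of base excision repair.

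Proliferation in each library was read from a mitotic score, the mean log2 CPM of 25 genes of mitosis such as Mki67, Top2a and Cdk1, none of which is among the 39. The score was 3.57, 5.92, 5.40, 3.24, 3.48 and 3.29 in old replicates 1 to 6, and 3.80, 4.98, 4.46, 3.92, 3.45 and 6.27 in young replicates 1 to 6. Young replicate 6 and old replicate 2 were thus the most mitotic cultures, followed by old replicate 3, and the ages overlapped over most of the range. Old replicate 2 had the lowest macrophage marker sum of the old libraries (32620 CPM). In young replicate 6 these markers had their lowest sum of the young libraries (27180 CPM) and the monocyte and progenitor markers their highest (73.8 CPM). The part of these marker levels in the results below was not tested. In bulk RNA, more cells that express a gene and more of its RNA per cell cannot be told apart.

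A gene was said to follow the score where its slope, the log2 change in CPM per log2 unit of the score in a fit with an age term, was positive at an adjusted p under 0.05 (edgeR, adjusted over 12620 genes). By this measure 19 of the 39 repair genes followed the score, 1 fell with it and 19 did neither, beside 27.5% of all genes tested that were called, 15.0% rising and 12.5% falling. The median slope was 0.16 over the 39 genes and 0.0029 over all genes tested. Fanconi anaemia and homologous recombination genes had the steepest slopes, with 3 of 3 and 4 of 5 genes following, and none of the 7 nucleotide excision repair genes followed, although Ddb1 did in DESeq2 and under library size, and Ercc1 under library size. Between these ends stood mismatch repair (2 of 2), the MRN complex (2 of 3), end joining (2 of 4), sensing and checkpoint signalling (2 of 5) and base excision and single-strand break repair (4 of 10).

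**Figure D1:**
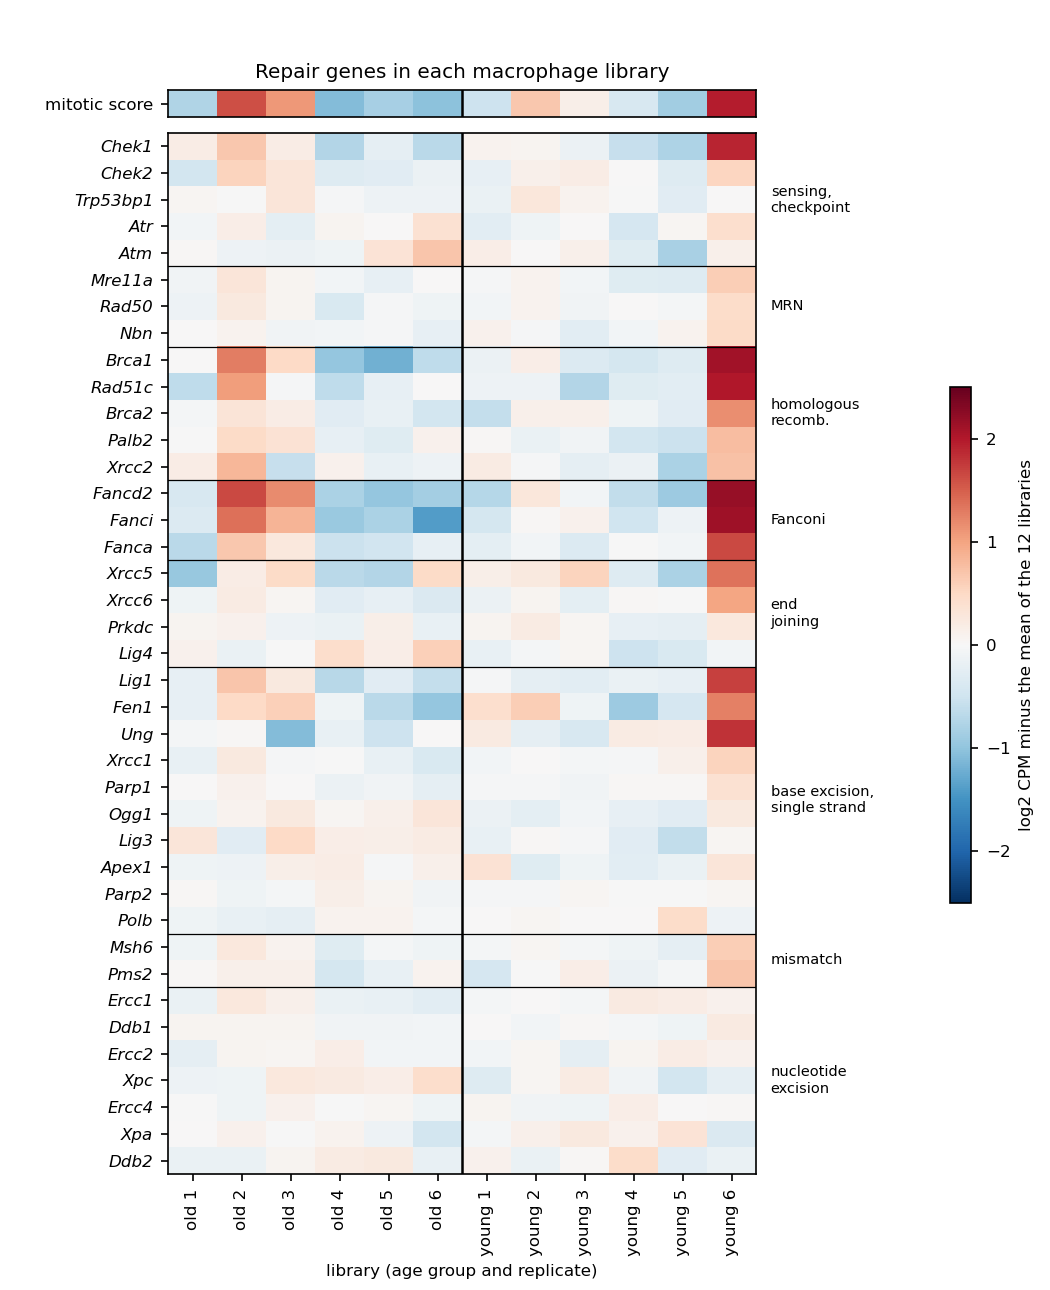
Level of each of the 39 genes in each library as log2 CPM minus its mean over the 12 libraries (colour), with old libraries left of young ones, genes grouped by pathway and the mitotic score in the top row on the same scale. Fancd2, Fanci and Brca1 are reddest in old replicates 2 and 3 and young replicate 6, where the score is 5.92, 5.40 and 6.27.

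**Figure D2:**
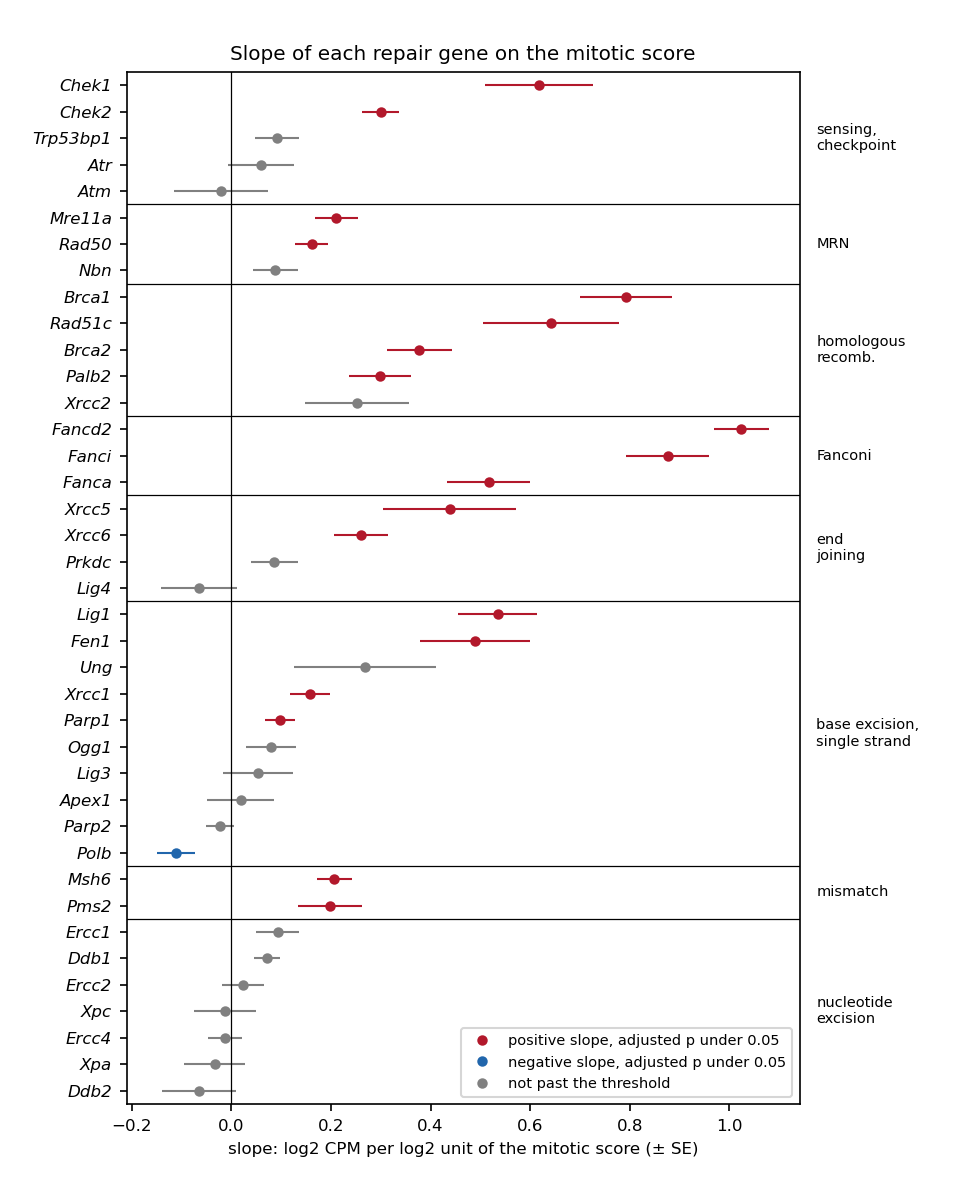
Slope of each gene on the mitotic score (log2 CPM per log2 unit of the score, horizontal axis; bars are ± SE), grouped by pathway. Red points are the 19 genes with a positive slope past the threshold, the blue point is Polb and grey points are the 19 others, with Fancd2 the farthest right at 1.02.

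Promoter sequences are shown because E2F factors are known to drive genes of DNA replication and repair as cells enter the cycle. RefSeq promoter windows (GRCm38.p6, 300 bases from 250 before to 50 after a gene's start) were given for 31 of the 39 genes. E2F letters (TTCCCGC or TTGGCGC, on either strand) were present in windows of 10 of 17 genes that followed the score (58.8%), in 3 of 14 that did not (21.4%) and in 7.79% of the 27025 genes of the table. CHR letters (TTTGAA, on either strand), a motif known from promoters of mitotic genes, were present in 1 of the 17 (Fen1), in none of the 14 and in 20.2% of all genes. These shares are a description of the letters in the windows and were not tested. The windows below are of the genes with the largest slopes that have an entry (Fanci and Brca1) and of those with slopes nearest 0 (Ercc4 and Apex1). Each is printed 5′ to 3′ on the gene's strand, with E2F letters in capitals and positions counted from 1 at its 5′ end.
Fanci (chr7:79392088-79392387, plus strand, capitals at positions 269 to 275): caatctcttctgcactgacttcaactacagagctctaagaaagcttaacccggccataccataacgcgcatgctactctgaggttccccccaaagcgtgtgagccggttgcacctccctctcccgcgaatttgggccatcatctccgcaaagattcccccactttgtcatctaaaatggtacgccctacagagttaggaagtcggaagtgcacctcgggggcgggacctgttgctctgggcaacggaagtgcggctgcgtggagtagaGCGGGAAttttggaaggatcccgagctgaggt
Brca1 (chr11:101551906-101552205, minus strand, capitals at positions 272 to 278): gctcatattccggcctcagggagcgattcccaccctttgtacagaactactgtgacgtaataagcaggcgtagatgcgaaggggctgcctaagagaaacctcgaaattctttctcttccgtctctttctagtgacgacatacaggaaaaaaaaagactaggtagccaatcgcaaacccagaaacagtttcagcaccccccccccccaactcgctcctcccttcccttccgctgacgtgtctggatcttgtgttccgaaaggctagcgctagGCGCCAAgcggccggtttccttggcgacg
Ercc4 (chr16:13109486-13109785, plus strand, no E2F letters): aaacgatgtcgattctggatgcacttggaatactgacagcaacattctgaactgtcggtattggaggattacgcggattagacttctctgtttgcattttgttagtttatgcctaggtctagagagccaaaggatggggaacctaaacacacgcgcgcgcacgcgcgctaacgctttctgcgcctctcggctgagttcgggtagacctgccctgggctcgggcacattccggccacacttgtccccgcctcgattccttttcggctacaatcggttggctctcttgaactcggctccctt
Apex1 (chr14:50924699-50924998, plus strand, capitals at positions 46 to 52): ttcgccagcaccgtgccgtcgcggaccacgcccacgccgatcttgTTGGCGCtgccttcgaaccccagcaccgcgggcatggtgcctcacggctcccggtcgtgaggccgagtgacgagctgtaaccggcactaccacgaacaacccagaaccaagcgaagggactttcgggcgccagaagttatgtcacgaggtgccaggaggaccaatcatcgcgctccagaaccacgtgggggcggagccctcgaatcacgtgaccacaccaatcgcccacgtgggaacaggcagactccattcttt
In Fanci and Brca1 the letters lay just after the annotated start, and in both they were read on the opposite strand. Apex1 held them far before its start and its slope was 0.019, so the letters occurred on both sides of the division. Atm and Ercc2 were the other genes with E2F letters that did not follow the score.

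All 3 Fanconi anaemia genes followed the score. Fancd2, which is monoubiquitinated together with Fanci when a fork meets a crosslink, had a lowest, median and highest level of 2.80, 3.67 and 17.2 CPM in old and of 2.90, 4.41 and 24.7 CPM in young libraries. Its 3 highest libraries were young replicate 6, old replicate 2 and old replicate 3, the order of the score, and the ages overlapped. Its slope was 1.02 ± 0.055 (SE; edgeR adjusted p = 2.76e-09), where a slope of 1 is that of the mean of the mitotic genes. Fanci, its partner, had a slope of 0.88 ± 0.084 and spanned 1.35 to 9.21 CPM in old and 2.52 to 15.5 CPM in young libraries. Fanca, a subunit of the core complex that carries out that ubiquitination, had the smallest slope of the 3 (0.52 ± 0.083, edgeR adjusted p = 0.000351). Its lowest, median and highest levels were 3.64, 4.64 and 9.35 CPM in old and 4.60, 5.58 and 18.3 CPM in young libraries. Young replicate 6 stood far above the other young libraries, which reached 5.80 CPM at most, and without it the Fanca slope was 0.34 and still past the threshold. Over the 12 libraries Pearson's r with the score was 0.98 for Fancd2, 0.94 for Fanci and 0.85 for Fanca.

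Among the homologous recombination genes, Brca1 had the largest slope, at 0.79 ± 0.092 (edgeR adjusted p = 2.51e-05). BRCA1 promotes the resection of broken ends. Its lowest, median and highest levels were 3.97, 7.55 and 22.3 CPM in old and 6.74, 7.84 and 39.02 CPM in young libraries. The same 3 libraries were highest as for Fancd2, while the libraries with a score under 5 stayed between 3.97 and 10.3 CPM. Among the latter, young replicate 2 had both the highest score and the highest level, and old replicates 5, 4 and 6 had the lowest levels. Rad51c had a slope of 0.64 ± 0.14, Brca2, a central mediator of the pathway, one of 0.38 ± 0.065, and Palb2, which joins BRCA1 to BRCA2, one of 0.30 ± 0.062. Xrcc2 had the smallest slope of the pathway and did not pass the threshold (0.25 ± 0.11, edgeR adjusted p = 0.0883). Its lowest, median and highest levels were 1.51, 2.25 and 4.00 CPM in old and 1.30, 2.12 and 3.72 CPM in young libraries, with old replicate 2 and young replicate 6 the highest and old replicate 3 the lowest of the old libraries. Leaving out old replicate 3 took the Xrcc2 slope past the threshold, at 0.35. Without young replicate 6 the slope of Rad51c was 0.36 and no longer passed (edgeR adjusted p = 0.114), and the slopes of Brca1, Brca2 and Palb2, at 0.64, 0.25 and 0.21, still did.

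**Figure D3:**
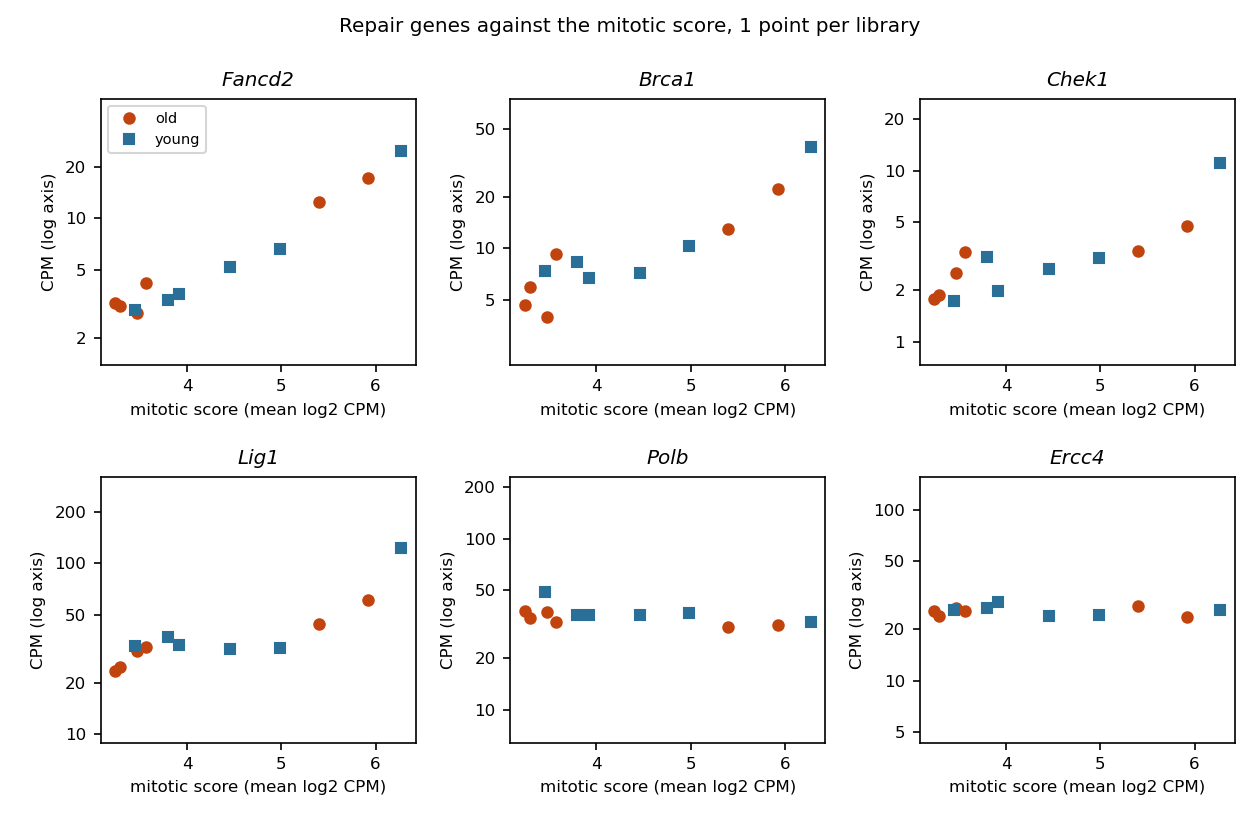
CPM of 6 of the genes (vertical log axes spanning the same fold range) against the mitotic score (horizontal axis), with 1 point per library, circles for old and squares for young. Fancd2 climbs over the whole range of the score, Brca1, Chek1 and Lig1 climb mainly at its upper end, and Polb and Ercc4 stay within 30.5 to 48.8 CPM and 23.7 to 28.6 CPM.

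In sensing and checkpoint signalling, the checkpoint kinases followed the score and the kinases above them did not. Chek1, which restrains the cell cycle when replication stalls, had a lowest, median and highest level of 1.78, 2.95 and 4.74 CPM in old and 1.73, 2.88 and 11.1 CPM in young libraries. Young replicate 6 was the highest library, and the other young ones reached at most 3.14 CPM. The slope of Chek1 was 0.62 ± 0.11 (edgeR adjusted p = 0.000704), and 0.37 without young replicate 6. Chek2, the kinase downstream of ATM, had a slope of 0.30 ± 0.037 that was 0.32 without young replicate 6. Atm had the smallest slope of the group (-0.021 ± 0.094, edgeR adjusted p = 0.894). Its lowest, median and highest levels were 6.36, 6.85 and 11.4 CPM in old and 3.98, 7.35 and 7.81 CPM in young libraries, with old replicate 6 highest and the mitotic old replicates 2 and 3 the lowest of the old ones. Atr, whose kinase acts at stalled forks, had a slope of 0.059 ± 0.066 and Trp53bp1, whose product shields broken ends from resection, one of 0.092 ± 0.044, neither past the threshold.

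Of the MRN complex, which holds broken ends and activates ATM, Mre11a and Rad50 followed the score and Nbn did not. Mre11a, the nuclease, had a lowest, median and highest level of 16.5, 18.5 and 23.4 CPM in old and 15.1, 18.3 and 29.1 CPM in young libraries, and a slope of 0.21 ± 0.044 (edgeR adjusted p = 0.00251). Rad50, the subunit that tethers the ends, had a slope of 0.16 ± 0.034. Nbn, the subunit that binds ATM, had a lowest, median and highest level of 19.2, 21.3 and 23.5 CPM in old and 18.4, 22.5 and 30.6 CPM in young libraries, with a slope of 0.088 ± 0.045 (edgeR adjusted p = 0.164). Young replicate 6 was the top library for each subunit, and among old libraries it was replicate 2.

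The end joining genes were split between the Ku subunits, which bind broken ends and followed the score, and the later-acting enzymes, which did not. Xrcc5 had a lowest, median and highest level of 0.467, 0.792 and 1.25 CPM in old and 0.520, 1.03 and 2.31 CPM in young libraries, with young replicate 6 the highest. Its slope of 0.44 ± 0.13 was close to the threshold (edgeR adjusted p = 0.0243) and did not pass without young replicate 6 (0.33) or without old replicate 3 (0.43). The other Ku subunit, Xrcc6, had a slope of 0.26 ± 0.055, and of 0.14 without young replicate 6. Lig4, the ligase that seals the joined ends, had the smallest slope (-0.064 ± 0.076, edgeR adjusted p = 0.567) and Prkdc, the kinase that Ku recruits, one of 0.086 ± 0.047. Per kilobase of exons Xrcc6 averaged 4.02 RPKM and Xrcc5 0.392 RPKM over the 12 libraries. Their products form a heterodimer.

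Base excision and single-strand break repair held both genes that followed the score and the only one that fell. Lig1, which joins Okazaki fragments at the fork and also closes long repair patches, had a lowest, median and highest level of 23.3, 31.6 and 60.9 CPM in old and 31.3, 32.9 and 123 CPM in young libraries. Apart from young replicate 6, young libraries lay within 31.3 to 37.0 CPM. The Lig1 slope was 0.54 ± 0.080 (edgeR adjusted p = 0.000211), and 0.34 without young replicate 6. Fen1, the flap nuclease of the same steps, had a slope of 0.49 ± 0.11, but 84.2% of its exon bases overlap other genes and its level is uncertain. Xrcc1, the scaffold of single-strand break repair, and Parp1, which marks the breaks, had small slopes of 0.16 ± 0.040 and 0.098 ± 0.030. Both lost the call without young replicate 6 (0.11 and 0.061) and without old replicate 2 (0.15 and 0.10), and Parp1 also with no low-count filter (edgeR in each).

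Polb, the polymerase that fills the single-base gap of short-patch repair, had a slope of -0.11 ± 0.038 (edgeR adjusted p = 0.0402). Its lowest, median and highest levels were 30.5, 33.5 and 37.6 CPM in old and 32.4, 35.9 and 48.8 CPM in young libraries. The 2 lowest old libraries were the mitotic replicates 3 and 2 and the lowest young one was replicate 6, while young replicate 5 stood above all others. The call did not hold without any one of old replicates 2, 3, 4 and 5 or young replicates 5 and 6, with slopes of -0.13 to -0.080. The other genes of the pathway had slopes that did not pass, of 0.27 ± 0.14 for Ung, the uracil glycosylase, 0.081 ± 0.050 for Ogg1, the glycosylase for oxidised guanine, 0.053 ± 0.070 for Lig3, the ligase bound to XRCC1, 0.019 ± 0.068 for Apex1, the abasic-site endonuclease, and -0.022 ± 0.028 for Parp2. Exons of other genes overlap 61.7% of the exon bases of Apex1, 25.1% of those of Lig3 and 10.6% of those of Ogg1.

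Both mismatch repair genes followed the score. Msh6, which recognises mispaired bases, had a lowest, median and highest level of 23.1, 27.1 and 34.4 CPM in old and 24.5, 27.7 and 43.8 CPM in young libraries, and a slope of 0.21 ± 0.036 (edgeR adjusted p = 0.0006). Pms2, part of the nuclease that follows, spanned 4.35, 6.15 and 6.42 CPM in old and 4.42, 5.80 and 9.46 CPM in young libraries, with a slope of 0.20 ± 0.064 (edgeR adjusted p = 0.0319). Young replicate 6 was the highest library for both. The Pms2 call was lost without any one of old replicates 4 and 5 or young replicates 1, 4 and 6, with slopes of 0.12 to 0.20, and the Msh6 slope without young replicate 6 was 0.15 and past the threshold.

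The nucleotide excision repair genes had slopes of -0.066 to 0.093 and none passed the threshold. Ercc1, a subunit of the nuclease that cuts on the 5′ side of a lesion, had the largest (0.093 ± 0.043, edgeR adjusted p = 0.12), with a lowest, median and highest level of 15.2, 16.4 and 22.1 CPM in old and 17.7, 19.1 and 21.3 CPM in young libraries. Old replicate 2 was its highest library and young replicate 6 was not among the 3 highest. Ercc4, the other subunit of that nuclease, stayed within 23.7 to 27.4 CPM in old and 23.9 to 28.6 CPM in young libraries. Ddb2, which recognises ultraviolet lesions, had the smallest slope (-0.066 ± 0.074), with a lowest, median and highest level of 3.26, 3.59 and 4.38 CPM in old and 3.03, 3.54 and 5.08 CPM in young libraries. The slopes of Ddb1, the partner of DDB2, Xpc, the damage sensor, Xpa, which verifies the lesion, and the helicase gene Ercc2 were 0.071, -0.013, -0.034 and 0.024. Ddb1 came nearest to the threshold (edgeR adjusted p = 0.0583) and passed it without old replicate 1 or without young replicate 2 (0.078 and 0.076), in DESeq2 (0.067, adjusted p = 0.0317) and under library size (0.11, edgeR adjusted p = 0.00534). Ercc1 passed it without young replicate 5 (0.11) and under library size (0.13, edgeR adjusted p = 0.0201), a scaling under which 23.9% of all genes followed.

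As a second reading, each gene's log2 CPM was correlated with the score over the 12 libraries, with permutation p-values adjusted over all 12620 genes. The 19 genes that followed had been picked by their slope on this same score in these same libraries. High values of r for them were thus largely built in, and they describe these genes without being separate support. The 19 genes that followed the score had Pearson's r between 0.72 and 0.98, and permutation tests gave adjusted p-values under 0.05 for Pearson's r in 19 of 19 and for Spearman's rho in 10 of 19. The share of all genes that passed in the correlation tests, here and below, was not computed. These counts thus have no background to be read against. Fancd2 had r = 0.98 (permutation p = 1e-05, the smallest that these permutations can give, adjusted 0.000394) and rho = 0.91 (permutation p = 0.00021, adjusted 0.00663), and Brca1 r = 0.91 (permutation p = 3e-05, adjusted 0.000721) and rho = 0.83 (permutation p = 0.00139, adjusted 0.0204). Of the 20 genes that did not follow, Ddb1 alone passed (r = 0.77, permutation p = 0.00336, adjusted 0.0185, and rho = 0.79, permutation p = 0.00323, adjusted 0.0332), and the range of r was -0.57 to 0.77. Within each age r was positive for all 19 genes that followed, at 0.56 to 0.99 in old and 0.75 to 0.99 in young libraries. The labels give no batch, so no value within batches could be computed.

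Much of this relation rests on the 2 libraries farthest from the median score, young replicate 6 and old replicate 2. Without them r was still positive for all 19 genes (0.24 to 0.94), but the adjusted permutation p stayed under 0.05 for Chek2 (r = 0.88), Fancd2 (r = 0.94) and Fanci (r = 0.86) and for none of the other 16. Trp53bp1, which did not follow the score in the 12 libraries, also passed there (r = 0.86). In the edgeR fit without the 2 libraries 5 of the 39 genes followed, namely Chek2, Brca1, Fancd2, Fanci and Trp53bp1, beside 3.65% of all genes. Without young replicate 6 alone, 14 genes followed, beside 9.06% of all genes, and the calls of Rad51c, Xrcc5, Xrcc1, Parp1 and Pms2 were lost. Of these 5, Rad51c lost its call on leaving out no other single library, while Xrcc1 and Parp1 also lost it without old replicate 2, Xrcc5 without old replicate 3, and Pms2 without any one of 4 other libraries. The other 14 calls held with any one library left out. Of the 39 genes, 23 were highest of all 12 libraries in young replicate 6, beside 3412 of the 12620 genes tested. Of these 23, 18 were among the 19 that followed, a set picked by a score that was itself highest in this library.

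A replication score made from 18 genes of the replication machinery such as Mcm2, Pcna and Rrm2 gave a similar division, with 22 of 39 genes following beside 19.1% of all genes. Of these, 18 followed both scores. Xrcc5 followed the mitotic score alone, and Nbn, Xrcc2, Ung and Ddb1 the replication score alone, with slopes of 0.23, 0.47, 0.70 and 0.13 on it. The 16 genes that followed neither score included Atm, Atr, Trp53bp1, Lig4, Lig3 and 6 of the 7 nucleotide excision repair genes. The scores themselves were correlated over the 12 libraries (r = 0.82, permutation p = 0.0004; rho = 0.75, permutation p = 0.00693), less so without the same 2 libraries (r = 0.56, permutation p = 0.0981).

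Slopes were also fitted in each age and compared, the question being whether repair genes tracked proliferation alike in old and young cultures. For none of the 39 genes did the slopes differ between ages at an adjusted p under 0.05 in edgeR, beside 0% of all genes. The unadjusted p was under 0.05 in 8 of 39 genes in edgeR, beside 10.2% of all genes, and DESeq2 and limma voom also called 0, with 8 and 9 genes under 0.05 unadjusted. Brca2 had the lowest p of the 39, with a slope of 0.23 ± 0.071 in old and 0.55 ± 0.076 in young libraries (difference -0.32 ± 0.11, edgeR adjusted p = 0.444). Chek1 had slopes of 0.37 ± 0.13 in old and 0.87 ± 0.13 in young libraries, and Ung of -0.068 ± 0.18 in old and 0.55 ± 0.16 in young libraries. These differences did not pass the adjustment, and young replicate 6 is the top of the young range.

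Old and young cultures did not differ in any of the 39 genes at an adjusted p under 0.05 in edgeR, where 0.0158% of all genes rose and 0% fell. The median log2 difference, old minus young, was -0.10 over the 39 genes and -0.010 over all genes tested. The difference was positive for 10 of the 39 and negative for 29, beside 5999 positive and 6620 negative among the 12620 genes tested. Of the 19 genes that followed the score, 18 had a negative difference, with a median of -0.24 over the 19, and the 20 others had a median of -0.0043. Young replicate 6 was the highest of the 12 libraries for 18 of the 19, and its part in these differences was not tested. DESeq2 and limma voom called 0 of the 39 as well. The unadjusted p was under 0.05 in 4 genes in edgeR and in DESeq2 and in 3 in limma voom, and over all genes in 5.47% in edgeR. CPM of old and young libraries overlapped in all 39 genes, and did not in 0.206% of all genes.

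**Figure D4:**
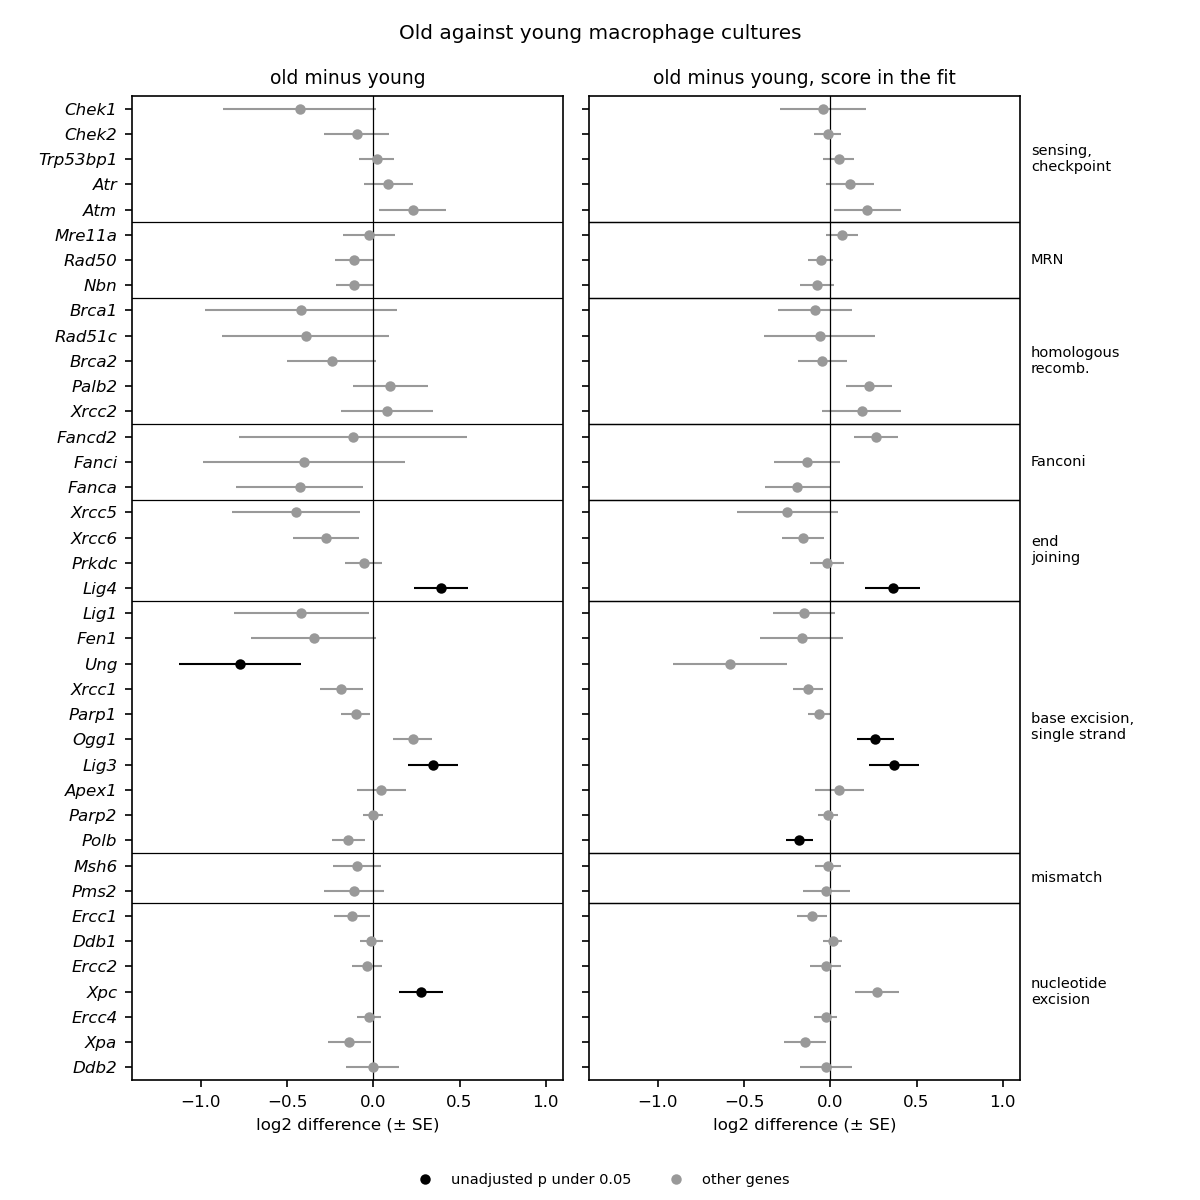
Log2 difference, old minus young, of each gene (horizontal axes; bars are ± SE) with the age group alone in the fit (left) and with the mitotic score added (right). Black points have an unadjusted p under 0.05, Lig4, Lig3, Ung and Xpc on the left and Lig4, Ogg1, Lig3 and Polb on the right, and none passed the adjustment.

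The 4 genes with the lowest p for age were Lig4, Lig3, Ung and Xpc, and the difference was positive for 3 of them. Lig4 had a lowest, median and highest level of 3.44, 4.22 and 5.80 CPM in old and 2.70, 3.51 and 3.95 CPM in young libraries. Its log2 difference was 0.39 ± 0.16 (edgeR adjusted p = 0.77), and its 3 highest libraries were old. Lig3 had a lowest, median and highest level of 6.70, 9.30 and 11.6 CPM in old and 5.33, 7.61 and 8.41 CPM in young libraries, with a log2 difference of 0.35 ± 0.14 (edgeR adjusted p = 0.77). Xpc had 16.3, 20.3 and 24.1 CPM in old and 12.9, 16.02 and 20.4 CPM in young libraries, with a log2 difference of 0.28 ± 0.13 (edgeR adjusted p = 0.77). In each of these genes the ages overlapped.

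Ung, with a negative difference, had a lowest, median and highest level of 1.47, 2.85 and 3.16 CPM in old and 2.37, 3.57 and 10.8 CPM in young libraries. Its log2 difference of -0.77 ± 0.35 (edgeR adjusted p = 0.77) was -0.28 without young replicate 6, the library at 10.8 CPM, the other young libraries reaching 3.64 CPM. Without young replicate 5 the difference of Lig3 was 0.27, and without old replicate 6 those of Lig4 and Xpc were 0.31 and 0.21. Old replicate 6, the library with T and NK cell markers at 20.6 CPM and Ly6c2 at 22.5 CPM, was the highest of the 12 libraries for 4 of the 39 genes, Lig4 (5.80 CPM), Xpc (24.1 CPM), Atm (11.4 CPM) and Ogg1 (10.9 CPM). The share of all genes that were highest in this library was not computed, so this count is not read as a result about the 39 genes. Without old replicate 6 the unadjusted p for age was under 0.05 in 1 of the 39 genes (Lig3), beside 2.47% of all genes. The part of these markers in the age differences was not tested.

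With the mitotic score in the fit, none of the 39 genes differed between old and young at an adjusted p under 0.05 in edgeR, beside 0.0396% of all genes (0.0317% higher and 0.00792% lower in old), and DESeq2 and limma voom also called 0. An unadjusted p under 0.05 was found for 4 genes in edgeR, beside 6.93% of all genes, and for 5 each in DESeq2 and limma voom. Lig3 (0.37 ± 0.14), Lig4 (0.36 ± 0.16) and Ogg1 (0.26 ± 0.11) had positive and Polb (-0.18 ± 0.077) a negative difference, all at an edgeR adjusted p of 0.685. All but Lig4 belong to base excision and single-strand break repair, the largest of the pathways with 10 of the 39 genes. Within it Lig3 and Ogg1 differed from Polb in direction. Without old replicate 6 the differences of Lig3, Lig4 and Ogg1 were 0.36, 0.30 and 0.21, and 1 of the 39 genes had an unadjusted p under 0.05, beside 4.35% of all genes. For the 19 genes that followed the score, the median difference was -0.062 with the score in the fit, against -0.24 without it. These genes were picked by a positive slope on the score in this same fit. A change in their age difference once the score is added is therefore built in, and no cause of it was tested.

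A further 81 repair genes were read, from lists that hold none of the 39. The lists covered the same pathways except the MRN complex, which had none, and added translesion synthesis (7 genes). Of these, 32 followed the mitotic score and 3 fell with it, beside 15.0% of all genes that rose and 12.5% that fell, and their median slope was 0.11. Homologous recombination had 9 of 15, with Eme1, a nuclease subunit that cuts recombination intermediates (0.94 ± 0.059), and Rad51b (0.85 ± 0.11) at the top. Sensing and checkpoint signalling had 7 of 14, led by Clspn, the adaptor through which ATR activates CHK1 (0.83 ± 0.090), and Fanconi anaemia 5 of 12, led by Ube2t, the enzyme that ubiquitinates FANCD2 (0.95 ± 0.074). Base excision had 3 of 14, and among them Neil3, a glycosylase, had the largest slope of the 39 and the 81 genes (1.17 ± 0.048, edgeR adjusted p = 1.07e-10). End joining had 3 of 6, mismatch repair 1 of 4, translesion synthesis 2 of 7 and nucleotide excision repair 2 of 9, Cetn2 (0.098 ± 0.029) and Gtf2h4 (0.12 ± 0.035). The 3 that fell were Dclre1c, the nuclease that opens hairpin ends (-0.32 ± 0.10), Smug1, a uracil glycosylase (-0.19 ± 0.052), and Rev1, a translesion polymerase (-0.15 ± 0.051). The genes named here were the ends of each list, picked after their values were seen. The shares of base excision and nucleotide excision repair genes that followed were the nearest to that of all genes. Without young replicate 6 and old replicate 2, 10 of the 81 followed, beside 3.65% of all genes, and without young replicate 6 alone 22, beside 9.06%. None of the 81 differed between old and young at an adjusted p under 0.05 in edgeR, DESeq2 or limma voom, and 5 had an unadjusted p under 0.05 in each, beside 5.47% of all genes in edgeR.

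Per kilobase of exons, the levels of the 39 genes ranged from 0.197 RPKM for Rad51c to 56.1 RPKM for Ddb1, as means over the 12 libraries, with a median of 1.86 RPKM. Parp1 (34.7 RPKM), Parp2 (13.1 RPKM) and Lig1 (9.88 RPKM) came next below Ddb1. The genes that followed the score had a median of 0.951 RPKM and those that did not of 3.55 RPKM, beside 4.69 RPKM over all genes tested. The ratio of the highest to the lowest library had a median of 1.93 over the 39 genes and of 1.74 over all genes tested. Besides Fen1, Apex1, Lig3 and Ogg1, exons of other genes overlap 42.7% of the exon bases of Ercc2, 23.8% of those of Ddb2, 15.95% of those of Fanci, 15.0% of those of Trp53bp1 and 10.5% of those of Fanca, and at most 7.69% in any other of the 39, and the counting set such reads aside without using strand.

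**Figure D5:**
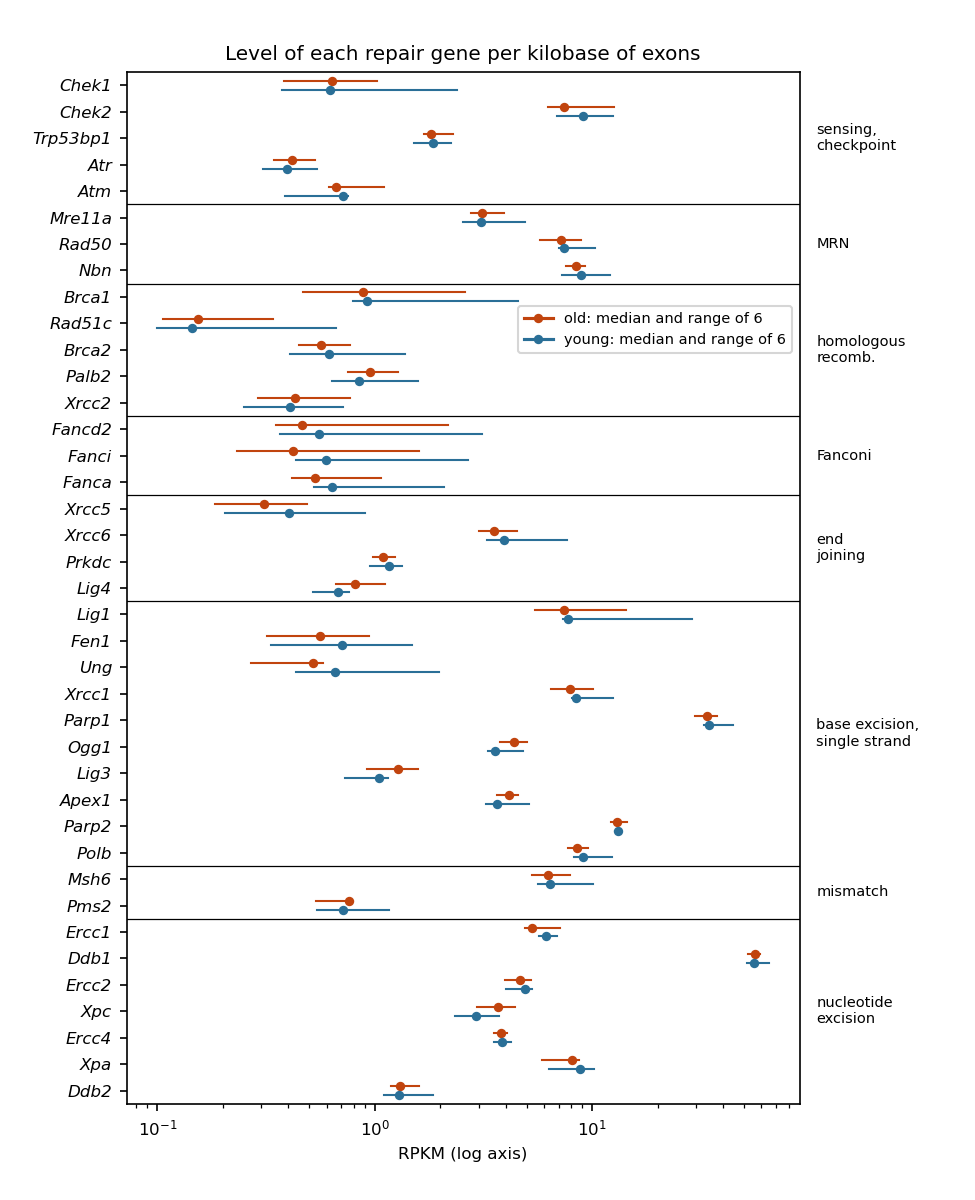
Level of each of the 39 genes per kilobase of exons (RPKM, log axis), with the median (point) and range (line) of 6 old libraries above those of 6 young libraries. Ddb1 and Parp1 have the highest levels (56.1 and 34.7 RPKM as means) and Rad51c and Xrcc5 the lowest (0.197 and 0.392 RPKM).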

How the data were processed

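Bulk RNA sequencing of 12 macrophage cultures was analysed. Per the labels' protocols, TRIzol was used for extraction and a TruSeq v2 kit, which does not mark strand, for the libraries. The authors deposited whole-number counts per gene, made, per the file headers, with featureCounts 1.6.0 on Ensembl 100 genes of GRCm38. The submitters' processing notes also name mm10, STAR and FastQC; versions of the tools are not given in the sources used here. Most low counts were even (74.7% of counts from 1 to 20), so mates may have been counted separately and totals are alignment records. Records that fit more than 1 gene (4.3 to 5.1%) were set aside. No columns of values were left unused.

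Tests were run on the counts in edgeR 4.0.16 under R 4.3.3 (quasi-likelihood, robust, TMM factors, edgeR's own low-count filter, two-sided, Benjamini-Hochberg over 12620 genes holding 99.91% of counts, threshold 0.05). Scores are means of log2 CPM with a prior count of 2. CPM and RPKM were computed here with TMM factors. Correlations used 100000 permutations. The common biological coefficient of variation was 21.7%. The scripts were tested on simulated data. No pair of libraries agreed within sampling noise (chi-square per gene 5.10 to 181).

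Values per library were given for the gene with the largest and with the smallest slope in each pathway and for the 4 genes with the lowest age p. The genes, lists and tests were chosen with earlier results of these data known. Alternatives were other scalings (RLE factors, library size), filters, thresholds and scores, DESeq2 1.42.0, voom of limma 3.58.1, a replicate block and leaving out libraries. Those for the slope difference, the other repair genes and the correlations were chosen after seeing the data.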

Additional observations from a re-analysis of the deposited data

Results flagged for a closer look

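Single libraries stood far from the other 5 of their age in 19 of the 78 sets of 6 libraries examined (39 genes in 2 ages), where a gap of this size is passed by chance in about 1 in 20 sets, or 3.9 of 78. The sets are not independent, since they share libraries. That chance share holds for normally spread values, while CPM was used here without logs, and the share over all genes was not computed. Young replicate 6 accounted for 17 of the 19, 15 of them in genes that followed the mitotic score, and its score of 6.27 was the highest of all. Genes that followed were picked by that score, and young replicate 6 was the highest library for 3412 of the 12620 genes tested.

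In genes of recombination and crosslink repair, young replicate 6 was high at 39.02 CPM for Brca1, 18.8 CPM for Brca2, 11.6 CPM for Palb2, 2.91 CPM for Rad51c, 18.3 CPM for Fanca, 24.7 CPM for Fancd2 and 15.5 CPM for Fanci. For Rad51c the other young libraries had 0.438 to 0.663 CPM. In sensing and end binding genes it was high at 11.1 CPM for Chek1, 29.1 CPM for Mre11a, 55.5 CPM for Rad50 and 34.4 CPM for Xrcc6. In excision and mismatch repair genes it was high at 73.0 CPM for Xrcc1, 236 CPM for Parp1, 123 CPM for Lig1 and 43.8 CPM for Msh6.

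Young replicate 6 was also high for Ogg1 (10.5 CPM, other young libraries 7.23 to 8.42 CPM) and Ung (10.8 CPM, other young libraries 2.37 to 3.64 CPM), which did not follow the mitotic score. Old replicate 2 was high for Rad51c at 1.49 CPM, the other old libraries having 0.467 to 0.725 CPM. Young replicate 5 was high for Polb at 48.8 CPM, the other young libraries having 32.4 to 36.7 CPM.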

How the results depend on the processing

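The number of genes that followed the score was 18 to 22 under RLE factors, the other filters, tools and scores and without an age term, where 7.13% (no low-count filter) to 19.1% (replication score) of all genes did, and 24 under library size, where 23.9% of all genes did. It was 16 and 21 at adjusted p thresholds of 0.01 and 0.1 (8.68% and 18.9% of all genes), 14 to 20 with any one library left out (9.06% to 16.3%), and 5 without the 2 libraries farthest from the median score (3.65%). The fall of 1 gene (Polb) was 0 under library size, without a low-count filter, on the replication score, on Mki67 alone, without the 2 libraries, without an age term and at a threshold of 0.01, and 0 to 1 with any one library left out. Other repair genes that followed numbered 10 without the 2 libraries and 22 to 34 with any one left out. Correlations past the threshold numbered 20, but 4 without the 2 libraries, 13 at a threshold of 0.01 and 10 to 21 with any one library left out. For these correlations the share over all genes was not computed. No age difference, with or without the score, and no slope difference passed under any alternative run. Of all genes called on the score, 54.6% rose with TMM factors, 52.4% with RLE factors and 75.1% with library size, under which the median slope of all genes was 0.042.

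All slopes that changed sign were of genes not past the threshold in the 12 libraries. Under library size those of Atm, Parp2, Xpa, Xpc and Ercc4 were 0.023, 0.018, 0.0061, 0.030 and 0.027, and on the replication score that of Ercc4 was 0.0005. Without the 2 libraries those of Atr, Nbn, Xrcc2, Ung, Apex1 and Ercc2 were -0.12, -0.034, -0.12, -0.42, -0.033 and -0.0088, and those of Xpa, Xpc and Ercc4 were 0.022, 0.12 and 0.0069. With any one library left out, the slopes ran from -0.092 to 0.042 for Atm, -0.036 to 0.11 for Atr, -0.12 to 0.37 for Ung, -0.058 to 0.063 for Apex1, -0.089 to 0.052 for Xpa, -0.051 to 0.047 for Xpc and -0.031 to 0.0060 for Ercc4. The cause was not tested.

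Old and young libraries share replicate numbers, but the labels do not tie the numbers together. Correlations of deviations were 0.31, 0.12, 0.024, 0.38, 0.39 and -0.17 for numbers 1 to 6, over 0.1 in 4 of the 6 and not in all, and 2 of 6 old libraries correlated best with their own number. With the replicate number as a block, 0 genes differed by age, 20 of the 39 and 40 of the 81 other repair genes followed the score, beside 20.0% of all genes, 1 fell (Xpc at -0.17, not Polb), and 0 differed at equal score or in slope. With it Xrcc5 (0.21, edgeR adjusted p = 0.357) and Pms2 (0.17, edgeR adjusted p = 0.134) did not follow, and Nbn (0.20, edgeR adjusted p = 0.00391), Ung (0.41, edgeR adjusted p = 0.0108) and Ddb1 (0.094, edgeR adjusted p = 0.0254) did. The block turned the slopes of Atr, Parp2, Ddb2 and Ercc4 to -0.0044, 0.013, 0.035 and 0.059.

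Counts are of alignment records, not of independent molecules. The standard error of an age difference had a median of 0.15 among the 39 genes, 0.26 among the 19 that followed the score and 0.59 among the 3 Fanconi anaemia genes. Log2 differences of 0.39 (Lig4) and -0.77 (Ung) did not pass (edgeR adjusted p = 0.77 for each). Differences well above the standard error of a gene could thus not be told from the spread between libraries.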
